A study of Populus x canadensis with 3 samples.

Results

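Roots of poplar that had received the higher of 2 doses of para-hydroxybenzoic acid (pHBA) were compared here with roots that had received the lower dose. Plants shed pHBA, a simple phenolic, into the soil around them, where it can slow root growth. The plants were rooted cuttings of the hybrid Populus × euramericana "Neva", taken from 1-year-old branches, held in water culture with diluted Hoagland solution for 60 days and then given pHBA for 3 days. The labelled doses are 4 and 2 mML-1, a unit the labels do not explain and that is presumably millimolar, and the libraries are called PHBA 4 and PHBA 2. An untreated library from the same kind of cuttings (dose 0, PHBA 0) is given as the level without the acid. RNA from roots of the same treatment was mixed in equal amounts, which leaves 1 library for each dose. The comparison uses 2 of the 3 libraries and the 289 of 472 distinct sequences that averaged 10 or more normalized reads in the 3 libraries. Normalized reads are the unit of the deposited table, read counts times 1 constant per library. With 1 library a dose there was no replicate, no test was possible, and each interval in brackets is a 95% interval for counting error only.

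MicroRNAs (miRNAs) are short RNAs cut from the stem of a hairpin precursor. The cut leaves a duplex, of which one strand is usually loaded into an Argonaute protein such as AGO1 while the opposite strand is mostly lost. In plants the loaded strand pairs along nearly its whole length with a messenger RNA and guides its cleavage, and 22 nt miRNAs can also start the production of secondary small RNAs from the cut target. In bulk RNA, fewer cells of a type and less of a miRNA per cell cannot be told apart. No root marker gene was measured, since the table lists miRNAs.

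The sequences on which the comparison turns are printed first, 5′ to 3′ and with T for U as in the deposited table. Capitals mark bases 2 to 8, called the seed here. The first 4 act on NBS-LRR resistance genes and are the most abundant kind in these roots, and the others are the sequences of 6 further families described below, chosen after their values were seen.
ptc-miR472b: tTTTCCCAactccacccatccc
ptc-miR472a: tTTTCCCTactccacccatccc
ptc-miR1448_L+1R+1: tCTTTCCAacgcctcccatacc
ptc-miR482d-3p: tTGCCGACcccacccatgccaa
ptc-miR168a-5p: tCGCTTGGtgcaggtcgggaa
ptc-miR1444a_R+1: tCCACATTcggtcaatgttcc
ptc-miR398b: tGTGTTCTcaggtcgcccctg
ptc-miR159a: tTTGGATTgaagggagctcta
ptc-miR160a: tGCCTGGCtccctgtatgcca
ptc-miR156g: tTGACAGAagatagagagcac
The prefix names the species of the registered miRNA (ptc for Populus trichocarpa), and a suffix such as R+1 or L-2 gives bases added or missing at the 3′ or 5′ end. ptc-miR472b and ptc-miR472a differ by the substitution A8T, counted from 1 at the 5′ end, so their seeds are not the same.

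At the higher dose, the regulator of AGO1 (miR168), the polyphenol oxidase regulator miR1444, the tasiRNA trigger miR390 and the abundant miR1448 were lower. The superoxide dismutase regulator miR398 and the MYB regulator miR159 were higher. So were most sequences of the NF-YA regulator family miR169, with both strands counted, and most sequences of 18 and 19 nt. Of the 289 sequences 50 were at least 2-fold higher in PHBA 4 (17.3%) and 47 at least 2-fold lower (16.3%), 33.6% in all, on the scale of log2 of normalized reads plus 1. The median log2 difference was 0.03, with quartiles at -0.68 and 0.69. An interval that excluded 1 was found for 48 of the higher sequences (16.6%) and 44 of the lower ones (15.2%), 31.8% in all. Without regard to size, 99 sequences were higher (34.3%) and 92 lower (31.8%) with an interval clear of 1, 66.1% in all. Reads on the listed sequences came to 542913 in PHBA 2 and 380800 in PHBA 4. Scaling both libraries to the same total moved the median log2 difference up by 0.30, so directions of differences smaller than that depend on the scaling. The share of higher sequences among those at least 2-fold apart was 51.5%, against 70.3% with equal totals and 38.6% without the doubted annotations described next and everything shorter than 20 nt.

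**Figure D1:**
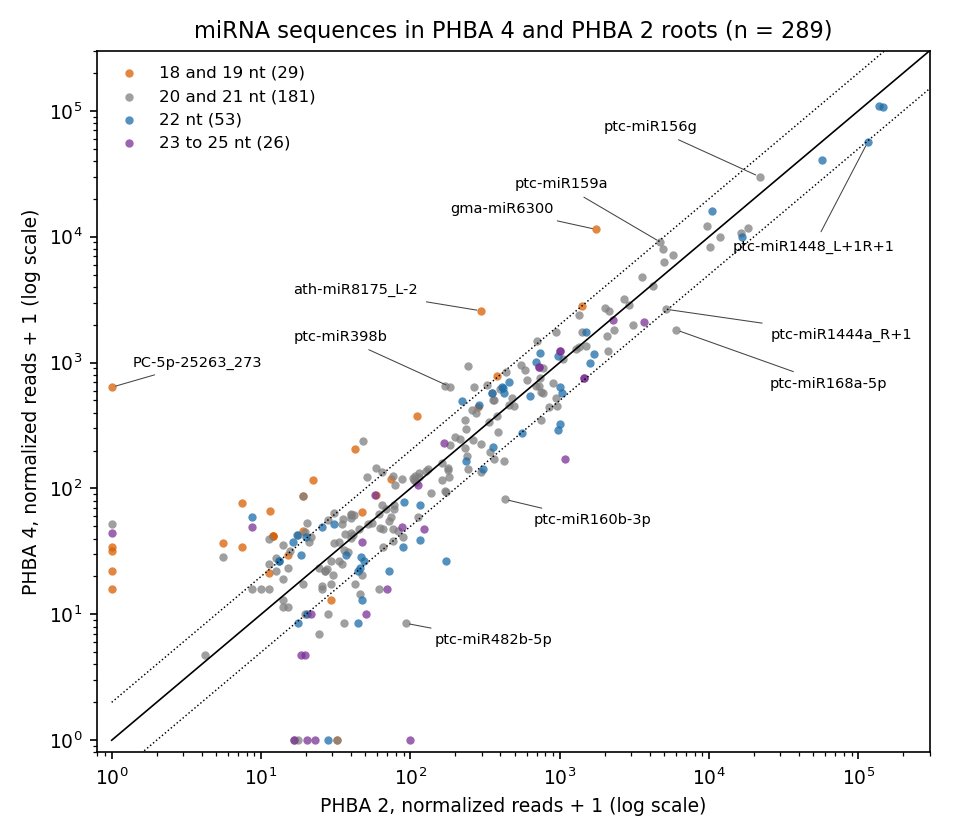
Normalized reads plus 1 of the 289 sequences in PHBA 2 (x axis) and PHBA 4 (y axis), both on log scales, coloured by length. The solid line marks equal values and the dotted lines a 2-fold difference, and points at 1 on an axis are sequences listed at 0 there. Sequences of 18 and 19 nt lie mostly above the upper dotted line, and ptc-miR168a-5p and ptc-miR160b-3p lie below the lower one.

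Some registered miRNAs are doubted because they may be pieces of other RNAs, and miR6300, miR5368 and miR6478 of that kind were found here (the fragment list). Its summed values were 4837, 14605 and 22670 normalized reads in PHBA 0, PHBA 2 and PHBA 4, 1.55-fold higher in PHBA 4 than in PHBA 2 (1.52 to 1.59). Among its 25 tested sequences were 9 higher by 2-fold or more and 2 lower (17.3% and 16.3% of all), with a median of 0.32. Its sum turned on 1 sequence, gma-miR6300, without which it was 12843 and 11264, 1.14-fold lower (1.11 to 1.18), a direction that turned with equal totals. The part of such reads in the differences below was not tested. Their own groups of short sequences are described after the conserved families.

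In normalized reads, families that act on resistance genes accounted for the lower total of PHBA 4. The normalized total was lower by 130792 in PHBA 4, and the difference was -66989 for miR472, -56603 for miR1448 and -18608 for miR482. This depends on the scaling. With equal totals the log2 ratio of the sum went from -0.39 to -0.09 for miR472 and from -0.35 to -0.05 for miR482. For miR1448 it went from -0.87 to -0.57. Shares of reads in PHBA 2 and PHBA 4 were 40.4% and 37.9% for miR472, 12.4% and 12.0% for miR482, and 17.8% and 12.0% for miR1448. ptc-miR472b had 146076 normalized reads untreated, then 145370 and 107680 at the 2 doses, so the lower dose lay near the untreated level and the higher dose below both. ptc-miR472a followed the same order at 145690, 138076 and 108879. For ptc-miR1448_L+1R+1 the values were 120549, 115371 and 56280, 2.05-fold lower in PHBA 4 than in PHBA 2 (2.03 to 2.07). All 4 tested sequences of miR472 had intervals below 1, whereas miR482 had 6 lower and 3 higher of 10.

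The miR482 family, which sets off secondary small RNAs from resistance genes, did not move as a block. ptc-miR482a.1_L+5 had 59538, 56943 and 40656 and was 1.40-fold lower (1.38 to 1.42). The less abundant ptc-miR482c-3p was also lower, by 1.70-fold (1.65 to 1.75). In contrast, ptc-miR482d-3p stood at 6886, 10413 and 16076, 1.54-fold higher in PHBA 4 than in PHBA 2 (1.50 to 1.59) and highest at the higher dose. ptc-MIR472a-p5_1ss7TC, the strand opposite ptc-miR472a, stood at 60.8 and 15.0 normalized reads, 4.05-fold lower (2.02 to 8.99). In the NBS-LRR list as a whole, 11 of 16 sequences had intervals below 1 and 4 above, beside 31.8% and 34.3% of all tested sequences. The median was -0.65 beside 0.03 over all tested sequences. The median of the fragment list was 0.32.

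Among the families that regulate the small RNA pathway itself, miR168 stood apart from miR162 and miR403. ptc-miR168a-5p had 8133 normalized reads untreated, 6020 at the lower dose and 1818 at the higher, 3.31-fold lower in PHBA 4 than in PHBA 2 (3.11 to 3.53). Most of the difference from the untreated level thus lay between the 2 doses. All 4 tested miR168 sequences were at least 2-fold lower in PHBA 4, from both strands of the hairpin. Their log2 differences ran from -1.87 for bra-miR168a-3p_R+1_2ss10TC16GC, at 46.5 and 12.0 normalized reads, to -1.11 for ptc-miR168a-3p, at 747 and 347. ptc-miR162a, which acts on the Dicer-like enzyme DCL1, stood at 2039, 2921 and 2861, and the interval of PHBA 4 against PHBA 2 included 1. Of the miR403 family, which regulates AGO2, ptc-miR403a stood at 355, 261 and 242 with an interval that included 1. ptc-miR403c-5p, named as a 5′ strand and with another seed, had 1944, 772 and 576 and was 1.34-fold lower (1.18 to 1.53). In the list 4 of 8 sequences were at least 2-fold lower, all of them miR168, beside 16.3% of all sequences. None was at least 2-fold higher, 5 intervals lay below 1 and 0 above (31.8% and 34.3% of all), and the median was -0.76. No replicate checks these counts, and the intervals cover counting error only.

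Copper-responsive miRNAs act on copper proteins such as superoxide dismutase, laccases, plantacyanin and polyphenol oxidases. Their families moved apart between the doses. ptc-miR1444a_R+1 stood at 1905, 5167 and 2649 normalized reads, so it was highest at the lower dose and 1.95-fold lower in PHBA 4 than in PHBA 2 (1.84 to 2.06). The 4 tested miR1444 sequences all had intervals below 1. ptc-miR398b took the opposite course with 62.6, 183 and 643, 3.52-fold higher in PHBA 4 (2.91 to 4.30), and both miR398 sequences were at least 2-fold higher. ptc-miR408-3p stood at 1597, 2071 and 1618, 1.28-fold lower (1.18 to 1.38). A form of it lacking the first base and longer at the other end, mtr-miR408-3p_L-1R+2, stood at 76.8, 172 and 25.5, 6.74-fold lower (4.06 to 11.9). The laccase regulator ptc-miR397a stood at 299, 162 and 116, 1.40-fold lower (1.05 to 1.88), and stepped down with each dose. In the list 8 of 10 sequences had intervals below 1 and 2 above (31.8% and 34.3% of all), with a median of -0.72.

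**Figure D2:**
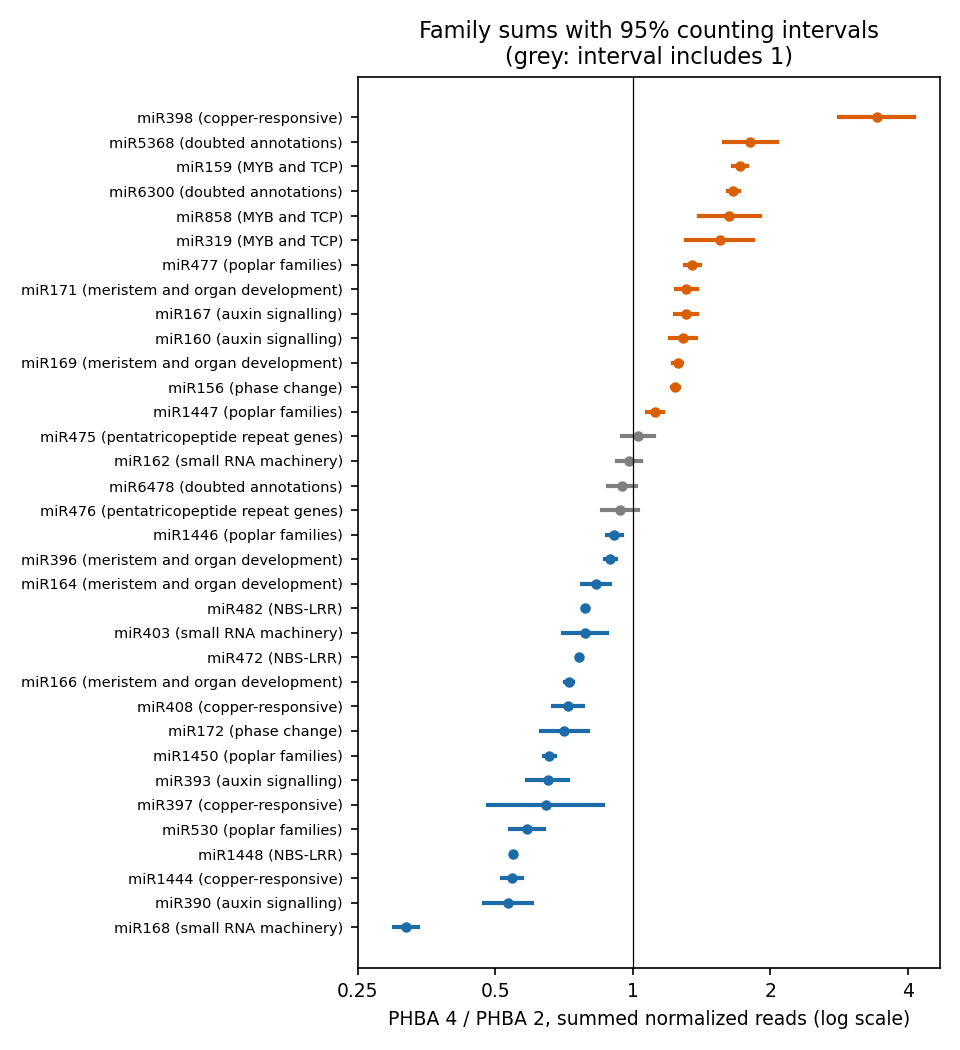
Ratio of summed normalized reads in PHBA 4 to PHBA 2 for the families of the lists that summed to at least 100 (x axis, log scale) with 95% counting intervals; poplar-numbered families are left out. Families are ordered by ratio, with miR168 lowest and miR398 highest, and grey marks the 4 families plotted (miR162, miR475, miR476 and miR6478) whose interval includes 1.

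Of 10 tested sequences of families that regulate MYB and TCP transcription factors 6 had intervals above 1 and 1 below (34.3% and 31.8% of all). Another 3 included 1, and 1 was at least 2-fold higher (17.3% of all sequences). ptc-miR159a had 6425, 4718 and 9060 normalized reads and was 1.92-fold higher in PHBA 4 than in PHBA 2 (1.84 to 2.00), and thus lowest at the lower dose. The TCP regulator ptc-miR319a had the same order at 375, 259 and 420, 1.62-fold higher (1.34 to 1.95). So did ath-miR858b, a MYB regulator in Arabidopsis, at 442, 349 and 568, 1.63-fold higher (1.39 to 1.91). The median was 0.56. The sequence with an interval below 1 was ptc-MIR159a-p5_1ss21AT, the strand opposite ptc-miR159a, at 430, 295 and 135. The fragment list was also higher at this dose, by its sum with gma-miR6300 included.

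Auxin-related families differed from one another. ptc-miR160a, which represses auxin response factors that act as repressors, had 1495, 1338 and 2396 normalized reads and was 1.79-fold higher in PHBA 4 than in PHBA 2 (1.65 to 1.94). The strand named ptc-miR160b-3p went the other way at 550, 427 and 81.0, 5.27-fold lower (3.94 to 7.16). ptc-miR167e, a regulator of ARF6 and ARF8, stood at 1879, 1401 and 1757, and its interval lay above 1. ptc-miR390a, which triggers trans-acting siRNAs against other auxin response factors, stood at 1317, 953 and 449, 2.12-fold lower (1.85 to 2.43). ptc-miR393a-5p_R+1, which acts on auxin receptors, stood at 809, 1005 and 635, 1.58-fold lower (1.40 to 1.79). Of 24 tested sequences 9 had intervals below 1 and 5 above, beside 31.8% and 34.3% of all tested sequences. The median was -0.36, while the sum was 1.07-fold higher (1.03 to 1.11).

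In the list of meristem and organ development families miR169 and miR166 differed in direction. The miR169 family acts on NF-YA transcription factors, and its 26 tested sequences include both strands of its hairpins. Of them 16 had intervals above 1 and 1 below, beside 34.3% and 31.8% of all tested sequences. By 2-fold or more 8 were higher and 0 lower (17.3% and 16.3% of all), and the median was 0.70. The 9 with the seed AGCCAAG summed to 4711 in PHBA 2 and 3968 in PHBA 4, with 6 intervals above 1 and 1 below. The 2 with the seed CGAGCCA summed to 5741 and 7238. The abundant ptc-miR169n-3p, named as a 3′ strand, had 5980, 4894 and 7931 normalized reads and was 1.62-fold higher (1.55 to 1.69). ptc-miR169t_L+2R-2 stood at 5286, 5711 and 7202, 1.26-fold higher (1.21 to 1.31). A 20 nt form, ptc-miR169ac_L-1, had 69.0, 47.4 and 239 and was 5.04-fold higher (3.47 to 7.34). The sequence below was the 23 nt form ptc-miR169ac_R+2_1ss13AG, at 3746, 3641 and 2113, 1.72-fold lower (1.62 to 1.84).

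Of 13 tested sequences of miR166, the HD-ZIP III regulator, 7 had intervals below 1 and 1 above (31.8% and 34.3% of all). ptc-miR166a stood at 26894, 18191 and 11646 normalized reads, 1.56-fold lower (1.52 to 1.61), and stepped down with each dose. The sequence above was a 19 nt form, mtr-miR166a_R-2_1ss19CT, at 202, 283 and 440, 1.55-fold higher (1.30 to 1.86). ptc-miR164a, a NAC regulator linked to lateral roots, stood at 2822, 1501 and 1349, a difference between the doses whose direction turned with equal totals. ptc-MIR164e-p3 was 1.92-fold lower (1.67 to 2.21). Over the whole list 24 of 66 sequences had intervals above 1 and 19 below, beside 34.3% and 31.8% of all tested sequences. The list had a median of 0.20 and a sum 1.08-fold lower (1.06 to 1.09), which turned with equal totals.

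Within miR396, which represses growth-regulating factors, 2 nearly identical sequences moved apart. They share their seed and differ by the substitution G21T, at the last base from the 5′ end, shown in capitals.
ptc-miR396a: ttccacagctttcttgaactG
ptc-miR396c: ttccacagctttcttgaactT
ptc-miR396a had 20612, 10190 and 8291 normalized reads and was 1.23-fold lower in PHBA 4 than in PHBA 2 (1.19 to 1.27). With equal totals its log2 ratio was -0.0001, so no direction between the doses can be given. ptc-miR396c stood at 983, 701 and 1493, 2.13-fold higher (1.91 to 2.36). How the authors assigned reads between sequences this alike is not known, and its part in the difference was not tested. A 22 nt relative with the same seed, ama-miR396-5p_R+1_1ss19CT, stood at 68.3, 43.3 and 7.50, 5.78-fold lower (2.28 to 19.2).

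miR156, which represses SPL transcription factors and holds plants in the juvenile phase, split by strand. The 4 tested sequences that contain GACAGAAGA, the core of the loaded strand, summed to 14039, 22314 and 30701 normalized reads over the 3 libraries, and 2 had intervals above 1 and 0 below. ptc-miR156g carried that sum, at 13194, 21780 and 29959, 1.38-fold higher in PHBA 4 than in PHBA 2 (1.35 to 1.40), and was higher at each dose. The other 10 sequences, all named as the 3′ strand, summed to 5527, 5760 and 4054, with 7 intervals below 1 and 0 above. Of all tested sequences 31.8% had intervals below 1 and 34.3% above. Poplar hairpin strands not registered as mature miRNAs leaned lower too, with 34 of 84 intervals below 1 and 14 above. By sign alone both groups were mixed. gma-miR156a_R+1 and cca-miR156c_L+4 of the first 4 were lower, and mtr-miR156b-3p_L-1 of the other 10 was higher. ptc-MIR156f-p3 was 1.60-fold lower (1.46 to 1.76) and ptc-MIR156e-p3 2.66-fold lower (1.63 to 4.53). This split was looked at after the values were seen. In the AP2 regulator miR172, ptc-MIR172e-p5 was 2.58-fold lower (2.07 to 3.23) at 425 and 165, and ptc-miR172h-5p had 31.5 in PHBA 2 and a listed 0 in PHBA 4. The sequence ptc-miR172d, with the registered miR172 name, stood at 196, 183 and 222, with an interval that included 1.

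The list called poplar families (miR1446, miR1447, miR1450, miR477 and miR530) went in both directions. ptc-miR1450_R-1 had 17654, 16242 and 10676 normalized reads and was 1.52-fold lower (1.48 to 1.57), and ptc-miR530a_R+1 at 1402, 2091 and 1224, 1.71-fold lower (1.57 to 1.86). Of 7 tested miR477 sequences 6 had intervals above 1 and 0 below, among them ptc-miR477a-3p_1ss13GA at 1187, 941 and 1764, 1.87-fold higher (1.71 to 2.06). ptc-miR1446a_R+1 stood at 4201, 4190 and 4080 with an interval that included 1. The regulators of pentatricopeptide repeat genes differed least, with 7 of 8 intervals that included 1, among them ptc-miR476a at 1186, 1285 and 1277. The exception was ptc-MIR476b-p3, at 114 in PHBA 2 and 38.3 in PHBA 4. Among 31 poplar-numbered sequences (miR6421 to miR6477) 7 intervals lay above 1 and 7 below, beside 34.3% and 31.8% of all tested sequences, and 17 included it. Their most abundant member, ptc-miR6445a, was 1.17-fold higher (1.08 to 1.27). The phosphate and sulfate list had 1 tested sequence, ptc-miR827, at 7.76 and 15.0, with an interval that included 1.

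**Figure D3:**
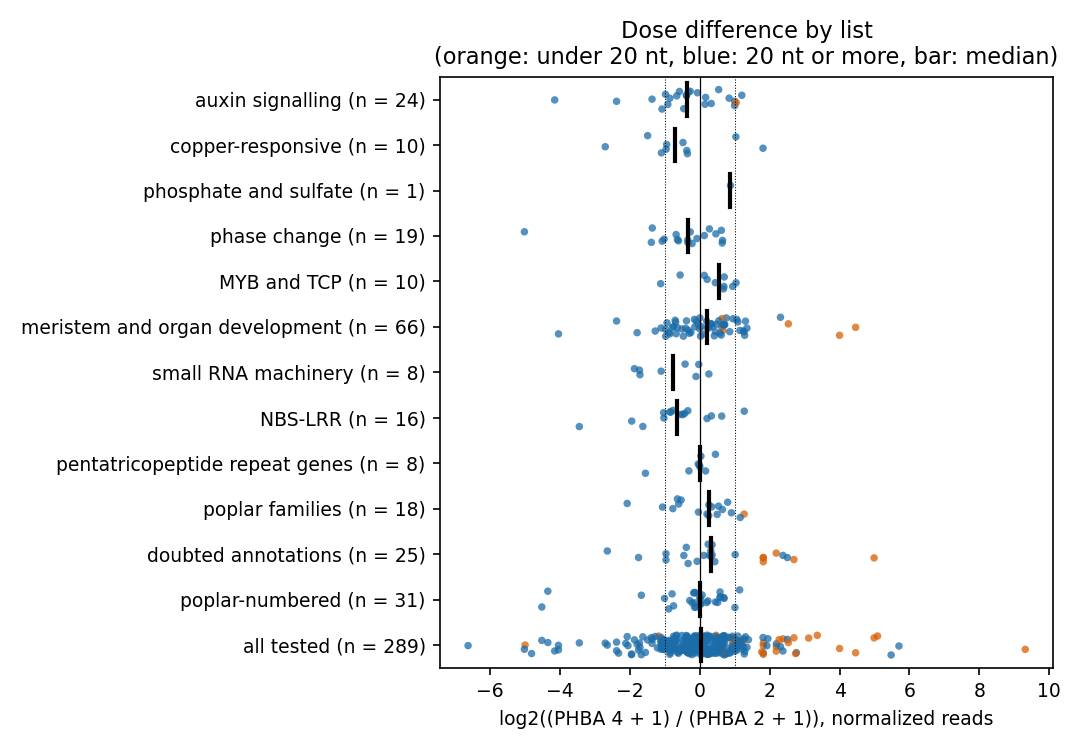
Log2 of the ratio of normalized reads plus 1, PHBA 4 over PHBA 2 (x axis), for each tested sequence of the lists and for all 289; black bars are medians, dotted lines mark a 2-fold difference and orange points are under 20 nt. The small RNA machinery, copper-responsive and NBS-LRR lists have medians of -0.76, -0.72 and -0.65, and the MYB and TCP list 0.56.

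Of 30 families with at least 3 tested sequences, 5 had every sequence lower in PHBA 4 (miR168, miR408, miR472, miR1444 and miR6457), 2 had every sequence higher (miR477 and miR3630) and 23 had both. Direction was thus mixed within most families by sign alone, whatever the interval. Among the 23 were families without intervals clear of 1 on both sides. In miR475 all 6 intervals included 1, and miR390 and miR393 had 1 and 3 intervals below 1 and 0 above. With equal totals the summed miR6457 family turned.

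One measured property that went with the direction was length. Sequences of 18 nt had a median log2 difference of 2.27 and those of 19 nt of 1.79, against 0.36 at 20 nt, -0.04 at 21 nt, -0.49 at 22 nt, -0.43 at 23 nt and -2.01 at 24 nt. Some short sequences, such as PC-5p-25263_273 and ptc-MIR169w-p3, reached the minimum mean of 10 through PHBA 4. The minimum thus favours high values there, although gma-MIR5376-p3_2ss16GA19GC reached it through PHBA 2. Its part in these medians and in the next counts was not tested. The 2 shortest classes together held 29 tested sequences, 20 higher by 2-fold or more and 2 lower (17.3% and 16.3% of all). With shared values counted once, these classes had 18 higher and 2 lower of 27. Together they held 0.67% of reads in PHBA 2 (Wilson 95% interval 0.648 to 0.692) and 3.60% in PHBA 4 (3.54 to 3.66). Of 10 tested sequences of 24 nt 6 were at least 2-fold lower and 0 higher (16.3% and 17.3% of all). With shared values counted once, 6 of 9 were lower. Among the 6, ptc-MIR481d-p3_1ss9AG and both strands of miR6446 were listed at 0 in PHBA 4. Such a 0 may stand for a value under a minimum, so the size of the 24 nt median is uncertain. Without the fragment list the shares of the 18 and 19 nt sequences were 0.412% and 1.56%, so more than 1.5 times lower than with it. Of these sequences 14 of 23 were higher by 2-fold or more and 2 lower. Without it the medians were 2.27 at 18 nt, 1.02 at 19 nt and -2.09 at 24 nt. At 18 nt this left 3259 normalized reads in PHBA 4, of which ath-miR8175_L-2 held 2576. Leaving out the list does not remove every sequence that may be a piece of another RNA. The 4 sequences of 25 nt broke the order with a median of 0.13.

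**Figure D4:**
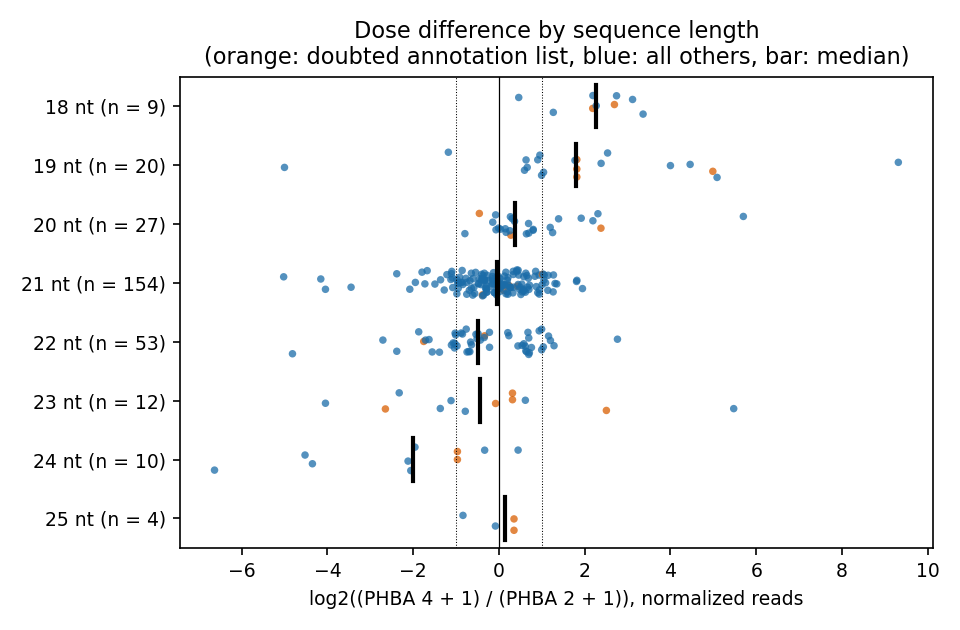
Log2 of the ratio of normalized reads plus 1, PHBA 4 over PHBA 2 (x axis), by sequence length, with 1 point per tested sequence; black bars are medians, dotted lines mark a 2-fold difference and orange points belong to the list of doubted annotations. Medians go from 2.27 at 18 nt to -0.49 at 22 nt and -2.01 at 24 nt.

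The same sequences can be set out in pairs in which 1 contains the other, which is no separate look at length. Among tested sequences there were 59 pairs in which the shorter lies whole inside the longer, and the shorter had the greater log2 difference in 40. Many pairs share a sequence, and 33 of them are in miR6300. Outside miR6300, where the shorter was under 20 nt it had the greater difference in 12 of 12 pairs from 5 families. Where it had at least 20 nt and lay outside the fragment list, it had the greater difference in 8 of 14 pairs. These pairs were chosen after the values were seen. Examples are printed with the bases that the longer form adds in capitals.
ptc-miR167a_R-2: tgaagctgccagcatgatc
ptc-miR167e: tgaagctgccagcatgatcTG
ptc-miR169r_R-2: tagccaaggatgacttgcc
ptc-miR169v: tagccaaggatgacttgccCA
ath-miR8175_L-2: tccccggcaacggcgcca
ath-miR8175: GAtccccggcaacggcgcca
ptc-miR167a_R-2 had 380, 379 and 780 normalized reads and was 2.06-fold higher (1.78 to 2.38), while the full-length ptc-miR167e was 1.25-fold higher (1.15 to 1.36). ptc-miR169r_R-2 stood at 2.10, 10.5 and 65.4, so it reached the minimum mean of 10 through PHBA 4. ptc-miR169v stood at 214 and 247 in PHBA 2 and PHBA 4 with an interval that included 1.

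In the miR6300 series, the forms share a start and differ at the 3′ end, and the relation was not a steady one. Capitals mark the bases added to the 18 nt form.
gma-miR6300: gtcgttgtagtatagtgg
gma-miR6300_R+3: gtcgttgtagtatagtggTGA
gma-miR6300_R+4: gtcgttgtagtatagtggTGAG
gma-miR6300_R+5_2: gtcgttgtagtatagtggTGAGT
gma-miR6300_R+6_1: gtcgttgtagtatagtggTGAGTA
gma-miR6300_R+7_2: gtcgttgtagtatagtggTGAGTAT
The 18 nt gma-miR6300 stood at 785 in PHBA 0, 1762 in PHBA 2 and 11407 in PHBA 4, 6.47-fold higher at the higher dose (6.11 to 6.86). gma-miR6300_R+3 stood at 150, 481 and 521 with an interval that included 1. gma-miR6300_R+4, 1 base longer, stood at 234, 979 and 290, 3.38-fold lower (2.88 to 3.98).
With the next base the direction turned again, since gma-miR6300_R+5_2 was 1.25-fold higher (1.13 to 1.37). gma-miR6300_R+6_1 was 1.96-fold lower (1.76 to 2.18) and gma-miR6300_R+7_2 1.28-fold higher (1.14 to 1.43). Some of these forms have exactly the same values as a sister form that differs by 1 base, so their reads cannot be told apart. gma-MIR6300-p5_1ss17AG, which starts 3 bases further in, stood at 201, 1082 and 172, 6.30-fold lower (5.16 to 7.69).

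Outside the lists the higher sequences came mostly from names registered in other species. The miR8175 family summed to 489, 469 and 2969 normalized reads, 6.33-fold higher in PHBA 4 than in PHBA 2 (5.65 to 7.10), so the lower dose stood near the untreated level. Its 18 nt form ath-miR8175_L-2 stood at 386, 296 and 2576, 8.70-fold higher (7.58 to 10.03). The family is not in the fragment list, but gma-MIR6300-p3 of that list lies whole inside ath-MIR8175-p3_2ss18TC22AC. Whether miR8175 reads are pieces of other RNAs was not tested. vvi-miR3630-3p_L-1_2ss2TA22CT stood at 132, 242 and 936, 3.87-fold higher (3.28 to 4.58), and peu-MIR2916-p3_1ss14CT at 45.4, 110 and 378, 3.44-fold higher (2.68 to 4.45). gra-MIR8654c-p3_2ss12TG18AG was 4.91-fold higher (3.33 to 7.49). By kind of name, 29 of 91 tested sequences with other species' names were at least 2-fold higher and 13 lower. Over all tested sequences the shares were 17.3% and 16.3%. Poplar hairpin strands not registered as mature miRNAs leaned the other way, with 7 higher and 20 lower among 84. Exact poplar miRNAs had 4 higher and 7 lower among 64.

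Sequences listed at 0 in one of the libraries have no fold. PC-5p-25263_273, a predicted 19 nt sequence (ggagaagcagaggaatggc), was listed at 0 in PHBA 2 and at 636 normalized reads in PHBA 4, with 2.99 in PHBA 0. gra-MIR7584e-p3_2ss12AC20AT and hbr-MIR6173-p3, at 51.0 and 43.5 in PHBA 4, were listed at 0 in both other libraries. In the other direction ptc-MIR481d-p3_1ss9AG went from 98.3 in PHBA 2 to a listed 0 in PHBA 4, with 52.1 in PHBA 0. In all, 7 tested sequences were listed at 0 in PHBA 2 and not in PHBA 4, and 9 in PHBA 4 and not in PHBA 2.

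The first base, which helps decide the Argonaute protein that plant small RNAs enter, shifted in the pool of reads. Sequences starting with T held 90.5% of reads in PHBA 2 (Wilson 95% interval 90.4 to 90.6) and 85.9% in PHBA 4 (85.8 to 86.0), and those starting with G held 3.96% and 6.59%. Among sequences of at least 20 nt that start with G, the summed values were 25770 and 24770, so this group was not higher without its shorter members. Without the single sequence gma-miR6300 the sums of all sequences starting with G were 26046 and 26246, or 3.71% and 4.59% of reads. At 20 nt or more the medians were -0.25 for G and -0.04 for T. Over all lengths the median for T was -0.002, so its lower share was not a difference of most sequences starting with T. The NBS-LRR list, whose most abundant sequences start with T, held 70.7% of reads in PHBA 2 and 61.9% in PHBA 4.

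Both strands of 61 hairpins were tested, paired by the name of the hairpin, and this asks whether a difference is shared by the strands cut from 1 precursor. In 33 of 61 the less abundant strand had the lower log2 difference and in 28 the higher, with a median of -0.08 between them. The intervals of the strands did not overlap for 27 hairpins, with the less abundant strand lower in 17 and higher in 10. In 12 hairpins the strands went in opposite directions with both intervals clear of 1. The 2 with the widest gap are printed with seeds in capitals.
ptc-miR482b-3p: tTACCAATacctctcatgccaa
ptc-miR482b-5p: gGCATGAGgtgtttggcaaga
ptc-miR171j_R+1: cGAGCCGAatcaatatcactc
ptc-MIR171j-p5: cGTGGTATtgatccggctcttc
ptc-miR482b-5p stood at 118, 91.8 and 7.50 normalized reads, 12.2-fold lower in PHBA 4 than in PHBA 2 (5.01 to 38.9), beside 828, 975 and 1125 for ptc-miR482b-3p. It made up 12.5% of the 2 strands in PHBA 0, 8.61% in PHBA 2 and 0.662% in PHBA 4.

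For the GRAS regulator miR171j the strands changed places. ptc-miR171j_R+1 stood at 393, 268 and 644, 2.41-fold higher (2.04 to 2.86), and ptc-MIR171j-p5 at 800, 305 and 141, 2.16-fold lower (1.70 to 2.78). The rank of these strands rests on the 2 doses compared, and ptc-MIR171j-p5 was the more abundant strand in PHBA 0 (67.1%) and PHBA 2 (53.3%) and the less abundant in PHBA 4 (17.96%). With strands ranked by PHBA 0, chosen after seeing the data, the less abundant strand was lower in 32 of 61 hairpins and in 7 of the 12, and miR171j was the 1 of the 12 whose rank differed. The miR482d, miR159a, miR160a, miR6427, miR1447 and miR396g hairpins had the less abundant strand lower under either rank. Of these ptc-MIR482d-p5_1ss9AT, at 1010 and 326, was 3.10-fold lower (2.67 to 3.62). By the ranks at the 2 doses, the less abundant strand was the higher one in 4 hairpins. ptc-MIR1448-p5_1ss20AG stood at 7349, 9615 and 12104, 1.26-fold higher (1.22 to 1.30), while the main miR1448 strand was lower. ptc-MIR164a-p3 was 2.50-fold higher (1.74 to 3.64), where the lower direction of its partner ptc-miR164a turned with equal totals, and ptc-MIR169ac-p3 2.41-fold higher (1.63 to 3.63). The fourth was miR156a, where ptc-miR156a has 5 entries in the table and may hold only part of its reads, so its rank as the less abundant strand is uncertain.

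**Figure D5:**
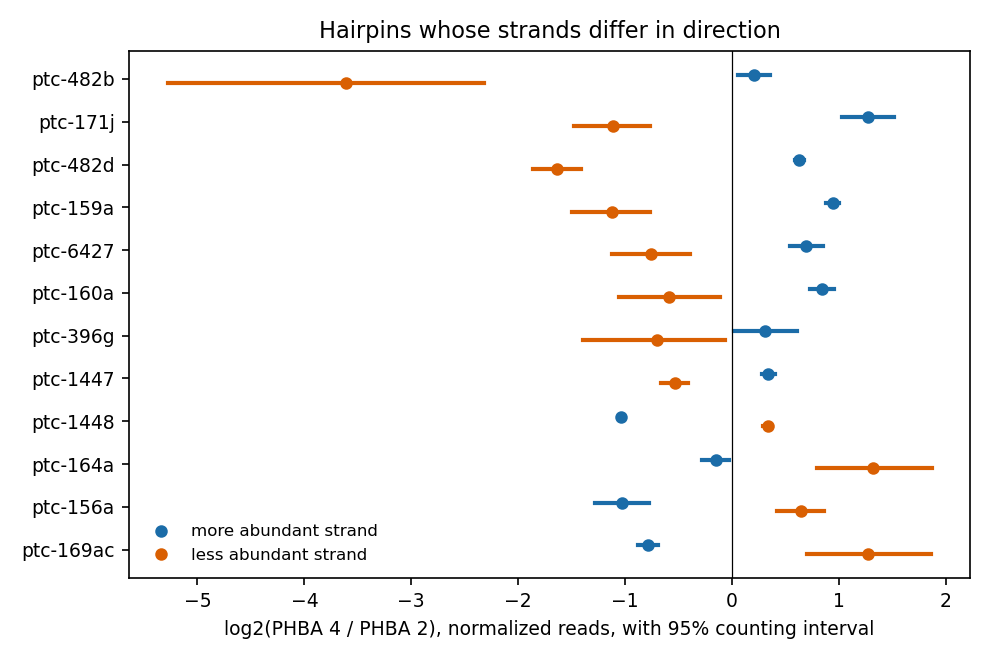
Log2 of the ratio of normalized reads, PHBA 4 over PHBA 2 (x axis), for both strands of the 12 hairpins whose strands differ in direction with both 95% counting intervals clear of 0; bars are the intervals. In the upper 8 hairpins the less abundant strand by PHBA 2 and PHBA 4 (orange) is lower, and in the lower 4 it is higher.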

How the data were processed

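Small RNA libraries were made from total root RNA with standard Illumina protocols after RNA of the same treatment was pooled, per the labels' protocols. Per the submitters' processing notes, bcl2fastq 1.8.4 converted the base calls. The sources used here give no aligner, counter, miRNA database or genome build. The authors deposited 1 table of 673 entries for 472 distinct sequences. For each library it holds an expected count (a read count that can be fractional) and a normalized signal, the deposited count times a constant of 0.498, 1.29 or 1.50 for PHBA 0, PHBA 2 or PHBA 4. The rules for dividing reads between entries and for the constants are not given. A sequence with several entries (151 sequences, at most 12 entries) has the same value at each and was used once, under its poplar name where it has one. Of the tested sequences 11 share all 3 values with another.

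Groups follow the dose label. Samples were not replicated, so no test was run. Expected counts were rounded for exact conditional binomial (Clopper-Pearson) intervals of the ratio, and Wilson intervals were used for shares of counts. Without molecular identifiers these intervals reflect counting error alone. The 2-fold calls were made on log2 of normalized reads plus 1, and folds in the text have no added 1. A 0 may stand for a value under a minimum, so no fold was given against it. Interval coverage was checked on simulated counts. Python 3.11.15, pandas 2.3.3, numpy 2.4.6 and scipy 1.17.1 were used.

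The members, the 12 lists and the rule for named sequences were chosen with earlier results of these data known. Named were the 10 most different sequences each way with a mean of at least 100 and an interval clear of 1, the most abundant and the 2 most different of each list, the 5 most abundant, the 3 highest listed at 0 on the other side, hairpins and same-seed sequences that moved apart, and families with a sum of at least 100. Others are given as family context and were chosen after their values were seen. Alternatives were 2 other scalings, minimums of none and 100, pseudocounts of 0.5 and 5, the mean of the 2 doses, every entry, shared values once, no zeros, and no fragment list or sequences under 20 nt.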

Additional observations from a re-analysis of the deposited data

How the results depend on the processing

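The balance of the 50 higher and 47 lower sequences depended on scaling and on which sequences were kept. With equal totals 71 were higher and 30 lower of 291, and with median-of-ratios factors 45 and 53. With no minimum on the mean 102 were higher and 106 lower of 472, and with a mean of at least 100 there were 13 each way of 143. Leaving out the doubted annotations and everything shorter than 20 nt gave 27 higher and 43 lower of 241. The other alternatives for these counts (2 other pseudocounts, the mean of the 2 doses, every entry, shared values once, no zeros) gave 43 to 74 higher and 38 to 56 lower, each within 1.5 times the main count. Of the 12 lists 7 had a median below that of all tested sequences, against 7 under both scalings and with no minimum, 8 with every entry counted and 6 of 11 with a mean of at least 100. With equal totals the log2 ratio of the sum turned to 0.0293 for miR164, 0.13 for miR396, 0.16 for miR1446, 0.0382 for miR6457, 0.19 for the meristem list and 0.14 for the poplar families, and that of ptc-miR164a to 0.14. The median of the pentatricopeptide repeat list turned from -0.005 to 0.292 with equal totals and to 0.0001 both at the minimum of 100 and over every entry. That of the poplar-numbered list turned to 0.29, 0.20 and 0.0018. With every entry counted, sequences of 18 and 19 nt held 0.766% of reads in PHBA 2 and 4.24% in PHBA 4, and those starting with T 91.8% and 87.8%. Without the doubted annotations the 18 and 19 nt share was 0.412% and 1.56%. The share of hairpins whose less abundant strand had the lower difference was 54.1%, and 56.7% of 30 whose less abundant strand reached 100, 51.6% of 31 with strands of the same length and 65.6% of 32 with 1 entry a strand, or 52.5% of 61 with strands ranked by PHBA 0, all chosen after seeing the data. No replicate could be left out, and no paired analysis was possible because each dose is 1 pooled library. The cause of these changes was not tested.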
